A study of Canis lupus familiaris with 7 samples.

Results

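A list of 10 genes of glycolysis and glucose use was read in canine osteosarcoma (OS), a malignant bone tumour whose cells make osteoid. The listed genes were SLC2A1, HK1, HK2, PFKP, ALDOA, PGK1, ENO1, LDHA, PDK1 and PDK4. A probe was taken as a member when it was no control and its gene name in the array files was a listed symbol. This gave 16 of the 43603 probes and 8 of the 10 genes, because ALDOA and PGK1 named no probe. All 16 probes passed the filter on dim signals, so the 8 genes stood among 10487 genes with a symbol and a kept probe. PDK4 was listed for its large difference between a pair of otherwise similar wild-type tumours. Its values are therefore a description, and no test between the groups is given for it.

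RNA of 7 primary tumours from pet dogs was hybridised, 1 one-colour array per tumour. By their labels 4 tumours were DLG2-deleted, from dogs of 8, 9, 6 and 7 years (deleted tumours 1 to 4). The other 3 were DLG2-wild-type, from dogs of 12, 10 and 8 years (wild-type tumours 1 to 3). DLG2 encodes a MAGUK scaffold protein with PDZ, SH3 and GUK domains, and the comparison asked which expression levels went with its loss. The sex labels were MC, FS, MC and FS for deleted tumours 1 to 4 and FS, FS and MC for wild-type tumours 1 to 3. The labels name no treatment. The tumours were whole tissue, so fewer cells of a type and less RNA per cell cannot be told apart.

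Glucose enters a cell through carriers such as the SLC2A1 product GLUT1 and is trapped as glucose-6-phosphate by hexokinases. The glycolytic enzymes then break it down to pyruvate. Lactate dehydrogenase A turns pyruvate into lactate, and pyruvate dehydrogenase admits it to the mitochondrial citric acid cycle. The pyruvate dehydrogenase kinases, among them PDK1 and PDK4, switch pyruvate dehydrogenase off. Many tumours make lactate even where oxygen is present, and the hypoxia-inducible factor HIF-1 induces SLC2A1, HK2, LDHA and PDK1. PDK4 is known rather for fasting, fatty acids and glucocorticoids, and muscle and fat use it to spare glucose.

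Several genes were read by more than 1 probe, and the results turned on HK2, SLC2A1 and PDK4. Their probes are shown here because the lowest unadjusted p-values belonged to HK2 and SLC2A1 and the widest span to PDK4. Each line holds the first 30 bases of a 60-base probe, 5′ to 3′, except the second PDK4 probe, which is given whole because its coordinates are split over an exon junction. No base is singled out by capitals.
HK2 probe A_11_P223393: aaatcagaagggacttcctctggttccccc
HK2 probe A_11_P0000021406: ctgtctgtggatacccactttgagttcaat
SLC2A1 probe A_11_P121581: gtaaatacaccaccttactccttctgtaac
SLC2A1 probe A_11_P0000026893: ggacctttgatgagattgcttccggtttcc
PDK4 probe A_11_P117651: ttctagcagatggatactgaatgttcaggc
PDK4 probe A_11_P149068: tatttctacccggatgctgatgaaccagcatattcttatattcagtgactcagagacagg
PDK4 probe A_11_P0000026794: caaacattatcaaatgagcatcgaggccga

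On the canFam2 build the HK2 probes lay at chr17:51358600-51358659 and chr17:51358474-51358533 on the minus strand, 66 bases apart. The SLC2A1 probes lay at chr15:3492767-3492826 and chr15:3491838-3491897 on the plus strand. The PDK4 probes lay on the minus strand of chromosome 14, at chr14:23772953-23773012, chr14:23782186-23782410 and chr14:23774995-23775054. The second of these spanned 225 bases of genome with its 60 bases. The chief probes of the other genes lay at chr4:23721721-23721780 (HK1), chr2:35065011-35065359 (PFKP, split), chr5:65299745-65299804 (ENO1), chr21:44031436-44031495 (LDHA) and chr36:19966691-19966750 (PDK1). Whether a probe lies in an untranslated part of its gene was not analysed here.

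Levels are log2 of the background-corrected and quantile-normalized intensity, and differences are deleted minus wild-type on this scale, with the standard error (SE) of limma. The chief probe of a gene is the one with the highest mean over the 7 tumours. Brightness depends on the probe, so levels are compared between tumours and not between genes. Wild-type tumours 1 and 2 stood apart from the rest by their likeness. Over 32309 kept probes they correlated at r = 0.987, against 0.936 to 0.966 in the 20 other pairs of tumours. Their labels give dogs of different ages with the same sex label, FS. With these 2 tumours counted as 1, the group differences reported below were 0.38 for SLC2A1, 0.019 for HK1, 0.52 for HK2, 0.39 for PFKP, 0.30 for ENO1, 0.50 for LDHA, -0.46 for PDK1 and 1.6 for PDK4, and 0 of the 7 tested genes were called. Of 12 listed osteoblast genes 7 had a probe, and all 7 were kept. Of these 5, RUNX2, BGLAP, ALPL, COL1A1 and SPARC, were well above background on all 7 arrays. The DLG2 level lay between 10.37 and 11.44 in deleted and between 10.91 and 12.03 in wild-type tumours, so the groups overlapped.

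Of the 7 tested genes, 0 were called between deleted and wild-type tumours at an unadjusted p below 0.05 with a Benjamini-Hochberg adjusted p below 0.1 in limma. Over all 32309 probes this rule also called 0 (0.0%), while 2349 probes (7.27%) had an unadjusted p below 0.05. A plain t-test as named in the study's methods also called 0, with 2237 probes at an unadjusted p below 0.05. Of the 13 probes of the 7 genes, 2 had an unadjusted p below 0.05, 1 for HK2 and 1 for SLC2A1. Both were higher in deleted tumours, as were 3.1% of all probes at that p. The same 2 probes had groups that did not overlap, against 3.9% of all probes with deleted tumours higher and 8.15% in either direction. By chief probe this held for 1 of the 7 genes, HK2, against 4.1% of all genes with deleted tumours higher. By gene, counting PDK4, 7 of 8 differences were above 0, against 52.8% of all genes. PDK4 was listed on wild-type values that enter its difference, so this count is a description. Without PDK4, 11 of the 13 probes of the 7 tested genes lay above 0. Probes of a gene are repeat readings of the same tumours, and the share of all probes above 0 was not counted. This count is therefore a description too. By chief probe, PDK1 was the only one of the 7 genes below 0. The median of the 8 differences, PDK4 included, was 0.37, against 0.01 over all genes.

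Read against the median of all probes, this direction turned under 1 of the 4 other combinations of background correction and scaling. With normexp background correction and each array scaled to its 75th percentile, the median of all probes shifted by 0.32 towards deleted tumours. There 6 of the 8 differences were still above 0. Relative to that shift only 1 of the 8 genes, PDK4, lay above 0, with a median of -0.18. With the processed signal of the scanner files and the same scaling, 7 of 8 genes lay above the median of all probes, as under both quantile-normalized alternatives.

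The means of markers of other cells and of cell division also lay apart between the groups, with 0 called in limma. All 14 kept proliferation genes were lower in the mean of deleted tumours (median -0.58). Of these, 4 had an unadjusted p below 0.05 in limma, against 7.67% of all genes in both directions. Their summed levels were 13.66 to 14.57 in deleted and 14.50 to 15.00 in wild-type tumours. All 5 kept osteoclast genes were lower too (median -1.55), CALCR by only -0.00016. Their median deviation from the gene means was 2.77 in wild-type tumour 3 but -0.85 in wild-type tumour 2. All 8 kept endothelial genes (median 0.43), all 8 kept adipocyte genes (0.95) and all 9 kept cartilage genes (0.78) were higher. By tumour, the median deviation of the adipocyte genes was 2.58 in deleted tumour 4 and at most -0.25 in every other tumour. For cartilage genes it was 1.98 and 0.86 in deleted tumours 2 and 3 but -0.56 in deleted tumours 1 and 4. For endothelial genes it was 1.08 in deleted tumour 3 and at most 0.12 in every other tumour. The part of these marker genes in the differences of the glycolytic genes and of the pathway lists was not tested.

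**Figure D1:**
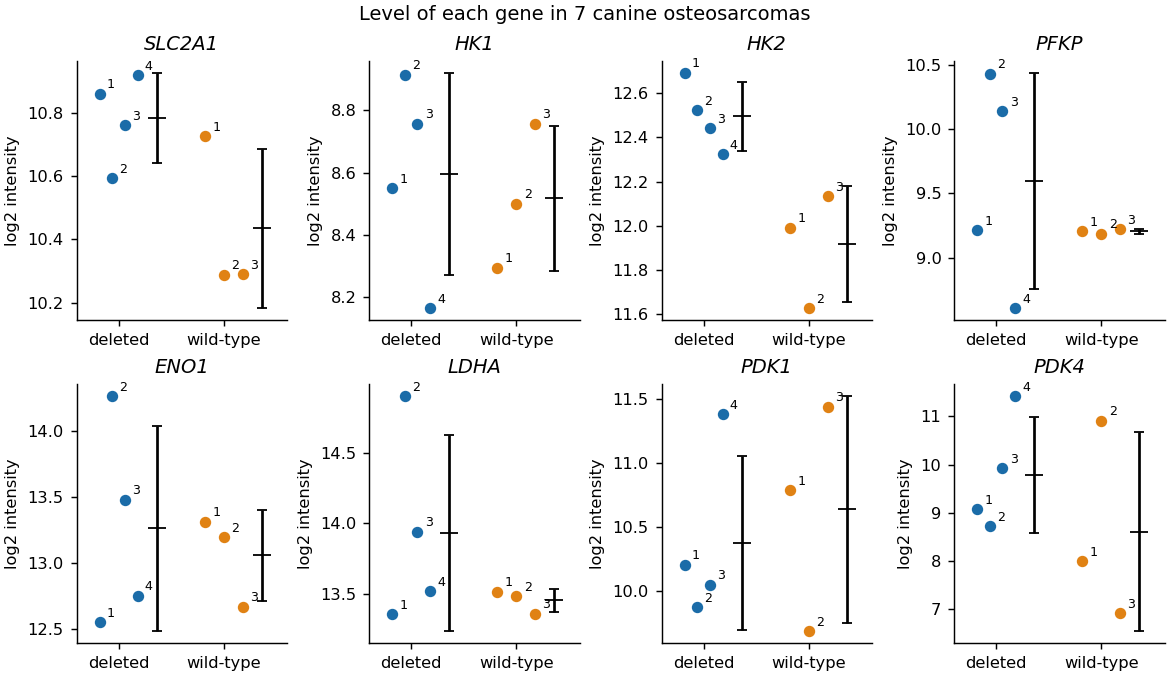
Level of each gene at its chief probe (vertical axis, log2 normalized intensity, own scale in each panel) in 4 deleted (blue) and 3 wild-type (orange) tumours. Points carry the tumour number and bars show the mean ± SD. HK2 is the panel in which all deleted tumours lie above all wild-type tumours, and PDK4 spans 4.52.

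Glucose uptake was read by SLC2A1, the basal glucose carrier. At its chief probe the deleted tumours read 10.86, 10.59, 10.76 and 10.92 and the wild-type tumours 10.73, 10.29 and 10.29. Wild-type tumour 1 lay among the deleted tumours, and the other two wild-type tumours lay below all of them. Group means lay 0.35 apart (SE 0.15, limma adjusted p = 0.686).

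At the second SLC2A1 probe the deleted tumours read 8.03, 8.32, 8.19 and 8.22 and the wild-type tumours 8.03, 7.72 and 7.88. The groups came close between deleted tumour 1 and wild-type tumour 1 but did not overlap, and the difference was 0.31 (SE 0.12, unadjusted p = 0.031 and adjusted p = 0.645 in limma). Both probes were lowest in wild-type tumour 2. With normexp and scaling to the 75th percentile the chief probe differed by 0.05, below the shift of all probes, and with the processed signal and the same scaling by 0.36.

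The hexokinases trap glucose in the cell. HK2, the inducible form, read 12.69, 12.52, 12.44 and 12.32 in deleted and 11.99, 11.63 and 12.13 in wild-type tumours. The lowest deleted tumour was above the highest wild-type tumour. The difference of 0.58 (SE 0.15), a 1.49-fold higher mean in deleted tumours, had an unadjusted p of 0.0073 and an adjusted p of 0.507 in limma. Over the 35 ways to split the tumours, the exact permutation test gave p = 0.0571, which is its smallest possible value.

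HK2 had a difference above 0 in each of the 25 alternatives tried, between 0.25 and 0.85. Because the groups did not overlap, every alternative that only left out or merged tumours had to lie above 0. Those that changed only the filter or the test left the difference at 0.58. Among the subsets were the 2 sessions in which the arrays were extracted from their scans. The session of deleted tumours 2, 3 and 4 and wild-type tumour 2 gave 0.80. That of deleted tumour 1 and wild-type tumours 1 and 3 gave 0.63. The slide that held both groups (deleted tumours 2 and 3, wild-type tumour 2) gave 0.85. Wild-type tumour 2 had the lowest HK2 level. The value of 0.25 came from normexp with scaling to the 75th percentile, where HK2 stood at -0.07 once the shift of all probes was taken off and the groups overlapped. With the processed signal and the same scaling it was 0.58 and the groups did not overlap.

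The second HK2 probe read 7.24, 7.78, 7.30 and 7.22 in deleted and 7.38, 7.22 and 6.92 in wild-type tumours. Here the groups overlapped and only deleted tumour 2 stood above the wild-type tumours. They differed by 0.21 (SE 0.18, limma adjusted p = 0.885). The 2 HK2 probes did not share their highest or their lowest tumour.

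HK1, the hexokinase of most tissues, read 8.55, 8.91, 8.76 and 8.16 in deleted and 8.29, 8.50 and 8.76 in wild-type tumours. The wild-type values lay within the range of the deleted ones. HK1 thus differed by 0.08 (SE 0.20, limma adjusted p = 0.966).

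PFKP, the platelet-type phosphofructokinase at the committed step of glycolysis, read 9.21, 10.43, 10.14 and 8.61 in deleted tumours. In wild-type tumours it read 9.21, 9.19 and 9.22. The wild-type tumours were almost level, with an SD of 0.02 against 0.84 in deleted tumours. Deleted tumours 2 and 3 lay above them and deleted tumour 4 below, and the difference of 0.39 (SE 0.43) had a limma adjusted p of 0.910.

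ENO1 makes phosphoenolpyruvate. Its chief probe read 12.55, 14.27, 13.48 and 12.75 in deleted and 13.31, 13.19 and 12.66 in wild-type tumours, with a difference of 0.20 (SE 0.43, limma adjusted p = 0.958). The highest and the lowest value both belonged to deleted tumours. The second ENO1 probe was also highest in deleted tumour 2 and differed by 0.17 between groups.

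LDHA, which makes lactate, read 13.36, 14.90, 13.94 and 13.52 in deleted and 13.52, 13.48 and 13.36 in wild-type tumours. Deleted tumour 2 stood above the other 6, and deleted tumours 1 and 4 lay at the edges of the wild-type range. The difference of 0.48 (SE 0.36, limma adjusted p = 0.862) was 0.15 without deleted tumour 2. The second LDHA probe shares 49 of its bases with the first and gave 0.50, so it is no independent reading.

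The difference of PFKP was 0.12 without deleted tumour 2 and 0.73 without deleted tumour 4. It was 0.54 and 0.0011 within the 2 sessions and 1.10 on the slide shared by both groups. Without deleted tumour 2, ENO1 was at -0.13 and HK1 at -0.027. For PFKP, LDHA, ENO1 and HK1 the difference was thus smaller or of the other sign without that 1 tumour. Deleted tumour 2 held the highest level of each of these genes, so leaving it out had to lower the difference. Only the size of the drop is a reading.

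**Figure D2:**
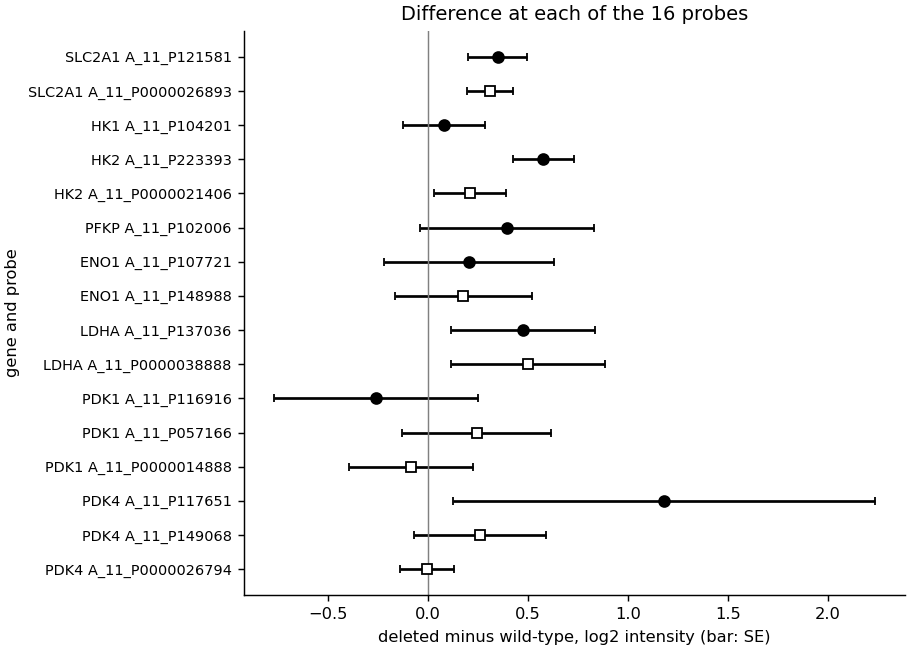
Difference of each of the 16 probes (horizontal axis, deleted minus wild-type, log2 intensity) with the SE of limma as bars. Filled circles are chief probes and open squares the other probes of the gene. The chief HK2 probe lies at 0.58 with a bar of 0.15, the chief PDK4 probe at 1.18 with the widest bar, and the 3 PDK1 probes lie on both sides of 0.

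PDK1, the kinase of pyruvate dehydrogenase that HIF-1 induces, read 10.21, 9.87, 10.05 and 11.38 in deleted and 10.79, 9.69 and 11.44 in wild-type tumours. Deleted tumour 4 and wild-type tumour 3 were high, and wild-type tumour 2 was lowest at all 3 probes. The chief probe differed by -0.26 (SE 0.51, limma adjusted p = 0.953). The other PDK1 probes differed by 0.24 and -0.09, so the sign was not shared between probes.

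PDK4 had the widest span of the 8 genes. Its chief probe read 9.07, 8.72, 9.92 and 11.43 in deleted and 7.99, 10.91 and 6.91 in wild-type tumours. Deleted tumour 4 was highest, wild-type tumour 2 next and wild-type tumour 3 lowest, a span of 4.52. Each group covered a wide stretch and they overlapped. The group means differed by 1.18 with no test.

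That PDK4 difference moved with single tumours and with the slide. Leaving out wild-type tumour 2 gave 2.33, leaving out wild-type tumour 3 gave 0.33, and leaving out deleted tumour 4 gave 0.63. Within the 1 slide with both groups (deleted tumours 2 and 3, wild-type tumour 2) it was -1.59. Within the session that held these and deleted tumour 4 it was -0.89, and within the other session it was 1.62.

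The second PDK4 probe read 6.80, 6.74, 6.87 and 7.62 in deleted and 6.50, 7.42 and 6.32 in wild-type tumours. Its signal cleared the background on 5 arrays, and it had the same highest and the same lowest tumour as the chief probe. The third PDK4 probe was well above background on 3 arrays, those of deleted tumours 1 and 4 and wild-type tumour 2. It read between 6.33 and 6.83, was highest in wild-type tumour 2 and was also lowest in wild-type tumour 3. All 3 probes were thus lowest in wild-type tumour 3, and the dimmer probes covered a smaller span.

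By tumour and at the chief probes, deleted tumour 2 held the highest level of 4 of the 8 genes, namely HK1, PFKP, ENO1 and LDHA. Of all genes 18.0% were highest there. PFKP, ENO1 and LDHA lay 1.0, 1.09 and 1.18 above their means over 7 tumours in it. PDK1 and PDK4 lay below their means in the same tumour, by -0.61 and -0.56.

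Of 21 other kept glycolytic genes, 4 (19.0%) were highest in deleted tumour 2, namely PFKL, ALDOC, TPI1 and GAPDH. Of 13 kept glucose and lactate carriers, 7 were highest there (53.8%), among them SLC16A3, a lactate exporter, at 8.48, and BSG, its chaperone, at 9.17. Of the others, SLC2A3, SLC2A10, SLC2A11 and SLC5A1 were dim in all tumours, at 6.44 to 7.17, and SLC2A11 was well above background on 3 arrays and SLC5A1 on 5. Cartilage genes moved with this tumour: 7 of 9 kept genes were highest there, with a median of 1.98 above their means. Their summed level was 15.17 there, against 15.81 in deleted tumour 3 and 11.58 to 14.76 in the other 5. The osteoblast median was lowest there, at -0.99. The part of these tissue genes in the glycolytic values was not tested.

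At the chief probes, deleted tumour 4 had the highest PDK4 and SLC2A1 and the lowest HK1 and PFKP. Deleted tumour 1 had the highest HK2 and the lowest ENO1 and LDHA. Deleted tumour 3 held no extreme and lay above the mean of the gene for 7 of 8 genes. Wild-type tumour 2 was lowest for SLC2A1, HK2 and PDK1 although second for PDK4. Wild-type tumour 3 was highest for PDK1 and lowest for PDK4. LDHA was near level in deleted tumour 1 and wild-type tumour 3, at 13.36. Other probes did not share all of these places. The second HK2 and SLC2A1 probes were highest in deleted tumour 2, and the other PDK1 probes in deleted tumour 4. The second ENO1 probe was lowest in deleted tumour 4, and the second LDHA and HK2 probes in wild-type tumour 3.

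**Figure D3:**
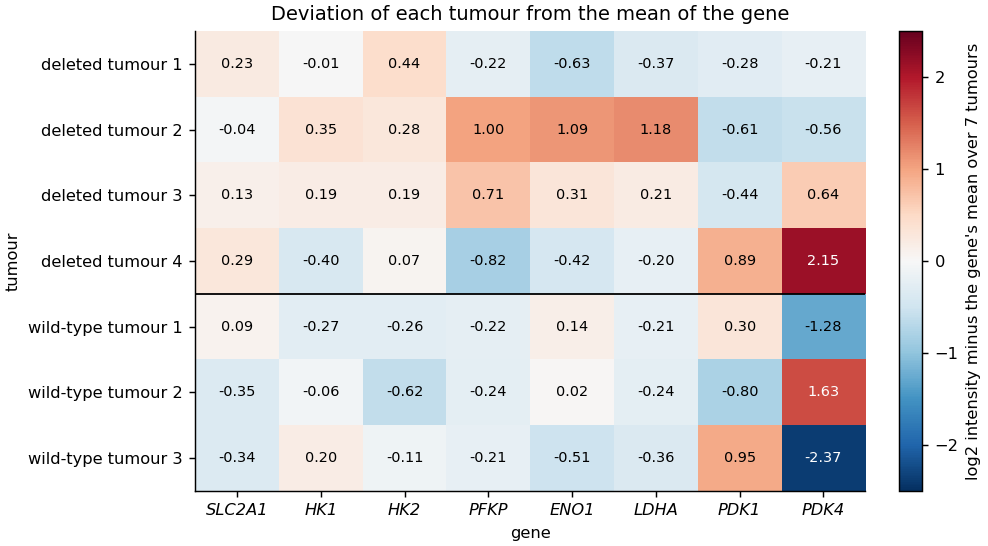
Deviation of each tumour (rows) from the mean of each gene at its chief probe over 7 tumours (columns), in log2 intensity, with red above and blue below. Deleted tumour 2 is high for PFKP, ENO1 and LDHA (1.0, 1.09 and 1.18), and the PDK4 column runs from -2.37 to 2.15.

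Wild-type tumours 1 and 2 lay over 1 log2 unit apart at 504 of 32309 probes (1.56%) and over 2 units apart at 50 (0.155%). PDK4 was chosen from this contrast, so its place in it is a description. PDK4 read 7.99 in wild-type tumour 1 and 10.91 in wild-type tumour 2, a difference of 2.91 or 7.54-fold. It ranked 11th of the 32309 probes by size and 2nd of 10487 genes, between CA3 at -3.89 and OMD at -2.81. The other PDK4 probes differed the same way, by 0.93 and 0.39.

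PDK1 ran the other way at all 3 probes, with differences of -1.10, -0.79 and -0.69 (tumour 2 minus tumour 1). The chief probes of the 6 remaining genes differed by -0.44 to 0.21. LDHA and PFKP were almost level, at -0.03 and -0.02. The median absolute difference of the 7 genes without PDK4 was 0.21 in this pair and 0.18 to 1.38 in the 20 other pairs. It was smaller in 2 of these. For PDK4 the difference was larger in 4 of the 20 other pairs.

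**Figure D4:**
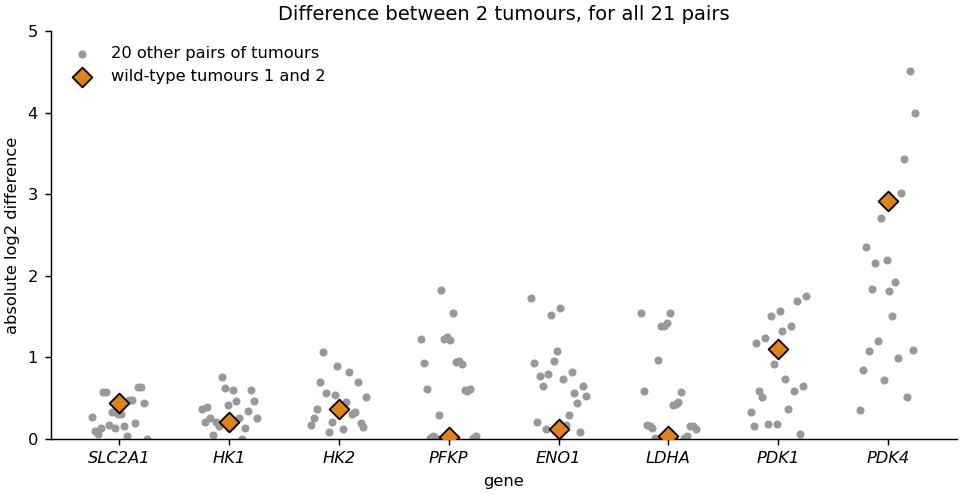
Absolute difference in log2 intensity between 2 tumours (vertical axis) at the chief probe of each gene (horizontal axis). The diamond is the pair of wild-type tumours 1 and 2, and grey points are the 20 other pairs. The diamond is at 2.91 for PDK4, 1.10 for PDK1 and near 0 for PFKP and LDHA.

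Among the genes that differed most in this pair, tumour 2 was higher in APOC1 (2.45) and PLIN2 (2.2), which serve lipid transport and lipid droplet coating. It was also higher in IL8 (2.42), S100A9 (2.19), CH25H (2.15) and BCL2A1 (2.12), genes of inflammatory and myeloid cells, and in HBD, a haemoglobin chain (2.27). Tumour 1 was higher in CA3, a carbonic anhydrase of muscle and fat, and in OMD, a proteoglycan of bone. Among the marker lists, 4 of 11 leukocyte genes were higher by more than 1 in tumour 2, PTPRC (1.17), LYZ (1.38), ITGAM (1.58) and AIF1 (1.70), and the summed leukocyte level was 12.67 in tumour 1 and 13.71 in tumour 2. Osteoclast genes were lower in tumour 2 (median -1.58, 3 of 5 past 1), as were osteoblast genes (median -0.79, 3 of 7 past 1). The part of these cells in the PDK4 difference was not tested. Within 7 related gene lists, 9 of 127 kept genes differed by more than 1 (7.09%), against 1.71% of all genes. These lists were chosen with earlier results of these data known, so this share is a description and no test. SLC2A5 (1.47), SLC2A9 (1.02), PFKFB3 (1.48), FBP1 (1.59), UCP2 (1.04), PLIN2 and CD36 (1.58) were higher in tumour 2. CA9 (-1.36) and MT2A (-1.33) were higher in tumour 1.

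The genes with the profile nearest to PDK4 over the 7 tumours were CFD, RBP7, MGST1, ESM1 and CD36. Nearness was the root mean square distance between mean-centred levels over 10459 genes, 0.81 to 0.93 for these 5 against a median of 1.5. CFD, an adipocyte gene, read 8.01, 8.55, 8.71 and 9.98 in deleted and 7.14, 8.39 and 7.08 in wild-type tumours. CD36, a fatty acid carrier of fat, endothelium and macrophages, read 7.76, 8.95, 10.85 and 11.63 in deleted and 9.45, 11.03 and 8.56 in wild-type tumours. All 5 were highest in deleted tumour 4, and CD36 was the one with a difference above 1.5 between wild-type tumours 2 and 1.

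Adipocyte genes moved with PDK4 in 1 of its high tumours and not in the other. In deleted tumour 4 the 8 kept of 10 listed genes lay a median of 2.58 above their means, and their summed level was 14.31. In the other 6 tumours the medians lay between -0.60 and -0.25 and the sums between 10.31 and 10.73. In wild-type tumour 2, with PDK4 at 10.91, the adipocyte median was -0.48 and ADIPOQ, the adipocyte hormone adiponectin, read 7.01 against 13.37 in deleted tumour 4.

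**Figure D5:**
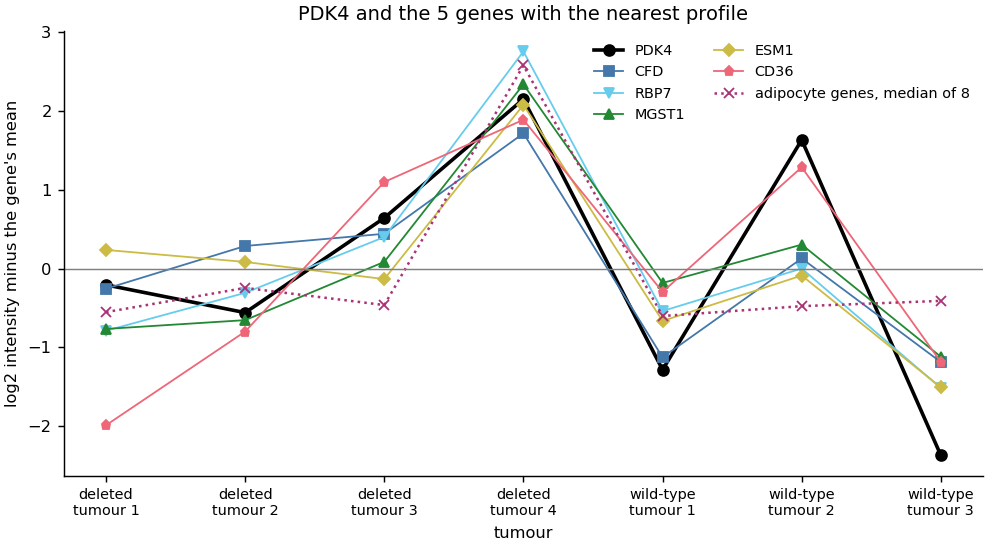
PDK4 (thick black), the 5 genes with the nearest profile (coloured) and the median of 8 adipocyte genes (dotted), as log2 intensity minus the mean of the gene (vertical axis) in each of the 7 tumours (horizontal axis; lines only join the points of a gene). Adipocyte genes peak in deleted tumour 4 at 2.58 and are at -0.48 in wild-type tumour 2, where PDK4 is at 1.63.

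The rest of the pathway was read through 7 lists of 166 genes. Of these, 127 had a probe under their symbol that passed the filter, and the others had no such probe or only dim ones. Limma called 0 of the 127, and the smallest adjusted p was 0.434. An unadjusted p below 0.05 was met by 14 (11.0%), against 7.67% of all genes. Groups did not overlap for 11 (8.66%), against 7.74% of all genes. The median difference was 0.08, against 0.01 over all genes, with 77 genes above 0 (60.6%), against 52.8% of all genes.

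Carriers of glucose and lactate (13 kept) had a median of -0.0016, and in limma 0 of them were called and 0 had an unadjusted p below 0.05. They ran from SLC2A9, a urate and sugar carrier, at 0.68 (SE 0.59) to SLC2A5, the fructose carrier, at -0.56 (SE 0.55). Other glycolytic steps (21 kept) had a median of -0.08. Of these, 3 were lower at an unadjusted p below 0.05 in limma, against 7.67% of all genes in both directions. PFKM, the muscle phosphofructokinase, was lowest at -1.14 (SE 0.48), and PFKL, the liver form, was highest at 0.21. TIGAR, a p53 target that lowers fructose-2,6-bisphosphate, read 8.08, 7.98, 8.55 and 8.46 in deleted and 8.89, 8.61 and 8.97 in wild-type tumours, and its groups did not overlap (-0.56, SE 0.18).

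Genes of pyruvate entry into mitochondria (15 kept) had a median of -0.02. PDK3, a kinase of the same family as PDK1 and PDK4, had the largest difference, 1.11 (SE 0.38), and read 10.41, 11.12, 9.87 and 10.97 in deleted and 9.33, 9.02 and 10.09 in wild-type tumours. Wild-type tumour 3 lay above deleted tumour 3, so the groups overlapped. BRP44, a subunit of the mitochondrial pyruvate carrier, was at -0.62. DLD, a subunit of pyruvate dehydrogenase, did not overlap, at -0.33 (SE 0.13). PDP2, a phosphatase that switches pyruvate dehydrogenase on, did not overlap at 0.11 but was well above background on 3 arrays.

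The pentose phosphate and gluconeogenesis list (15 kept) had a median of 0.02. PGM1, which links glycogen to glycolysis, read 12.28, 11.99, 11.61 and 11.95 in deleted and 11.31, 11.35 and 11.20 in wild-type tumours, for a mean difference of 0.67 (SE 0.16, limma adjusted p = 0.494). TKTL1, a transketolase-like gene, at -0.49 and FBP2, the muscle fructose bisphosphatase, at -0.30 were higher in every wild-type tumour. PCK1, the gluconeogenic carboxykinase, had the largest mean difference, 1.19 (SE 1.30). It read 11.65 in deleted tumour 4 and at most 6.91 in the others, and it is also on the adipocyte list.

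HIF-1 response genes (21 kept) had a median of 0.19, against 0.01 over all genes. Of these, 15 lay above 0, against 52.8% of all genes. An unadjusted p below 0.05 in limma was met by 3, against 7.67% of all genes in both directions. Those 3 did not overlap between groups and were higher in deleted tumours, as were 4.1% of all genes. ANKRD37, a hypoxia-induced ankyrin repeat gene, read 9.77, 10.12, 10.37 and 10.46 in deleted and 8.87, 9.11 and 9.42 in wild-type tumours, which put the means 1.05 apart (SE 0.21, limma adjusted p = 0.434). ADM, a vasodilator peptide, differed by 0.91 and ERO1L, an oxidase of protein folding, by 0.79. BNIP3L, a mitophagy receptor, was lowest at -0.49. By tumour, the median deviation of the 21 genes was -0.15, 0.15, 0.00093 and 0.26 in deleted tumours 1 to 4. In wild-type tumours 1 to 3 it was -0.17, -0.20 and -0.05, so deleted tumour 1 lay below wild-type tumour 3. Deleted tumour 4 held the top level for 8 of the 21 genes (38.1%), against 18.7% of all genes. The members named above as induced by HIF-1 were at 0.58 (HK2), 0.48 (LDHA), 0.35 (SLC2A1) and -0.26 (PDK1). The remaining tested members were at 0.39 (PFKP), 0.20 (ENO1) and 0.08 (HK1). Which members HIF-1 drives in these tumours was not tested.

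The fatty acid list (24 kept) had a median of 0.10 and ran from PPARG, the adipocyte nuclear receptor, at 1.01 to CPT1B, the muscle carnitine palmitoyltransferase, at -0.66. HADHB, of mitochondrial fatty acid oxidation, did not overlap, at -0.23. Genes that glucocorticoids or FOXO factors induce (18 kept) had a median of 0.31, against 0.01 over all genes. Of these, 16 lay above 0, against 52.8% of all genes. An unadjusted p below 0.05 in limma was met by 2, against 7.67% of all genes in both directions. TSC22D3, a glucocorticoid-induced leucine zipper gene, was at 0.85 (SE 0.37). DUSP1, a phosphatase of the same response, was at 0.84 (SE 0.22) and did not overlap, and SESN1 was lowest at -0.05. By tumour, the median deviation of the 18 genes was -0.05, 0.01, 0.26 and 0.31 in deleted tumours 1 to 4. In wild-type tumours 1 to 3 it was -0.39, -0.22 and 0.04, so the groups overlapped. Deleted tumour 4, where adipocyte genes were high, held the top level for 8 of the 18 genes (44.4%), against 18.7% of all genes.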

How the data were processed

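RNA of 7 canine OS tumours was read by the authors on a one-colour (Cy3) Agilent Canine V2 array. Per the file headers, the deposited values are spot and local background intensity on a linear scale from Agilent Feature Extraction 10.7.3.1, with a processed intensity beside them. The authors' own normalization (multi-array average, with a batch correction of unstated batch) was not used here.

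Mean spot intensity was background-corrected with normexp (saddle, offset 50) in limma 3.58.1 (R 4.3.3), then quantile-normalized over the 7 arrays and logged (log2). Controls and 144 outlier-marked values were left out, and a probe was kept when well above background on at least 3 arrays, which left 32309. Each array had 30280 to 34538 probes well above background and 0 saturated spots. The number of arrays limits the precision. Symbols came from the files (18768 probes) or from RefSeq assembly UU_Cfam_GSD_1.0 (581 probes), and 24254 probes had none.

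Groups, from the labels, were compared with limma (lmFit and eBayes, two-sided, no covariates) over all kept probes, and an exact permutation test over 35 splits was added (scipy 1.17.1). Slides (5) were read from barcodes and sessions (2) from gaps in the extraction times. The genes named outside the 10 are, per list, those with the largest and the smallest difference and those whose groups did not overlap, at most 4 a list, those of the lists that differed by more than 1 between wild-type tumours 1 and 2, the 10 largest of that pair, and the 5 nearest to PDK4. Others named for their place in deleted tumour 2 were chosen after their values were seen. The 10 genes and all lists were chosen with earlier results of these data known. The fit was tested on simulated data. Alternatives covered background, scaling, filter, test, slide, session, covariates, threshold, probe per gene and each tumour left out.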

Additional observations from a re-analysis of the deposited data

Results flagged for a closer look

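In 2 of 16 groups of 4 deleted tumours, 1 for each probe, 1 tumour stood apart by its gap to the nearest other divided by the range of the group. At the second HK2 probe deleted tumour 2 was highest at 7.78, with a ratio of 0.861. At the second PDK4 probe deleted tumour 4 was highest at 7.62, with a ratio of 0.849. Both lie above the critical value of Dixon's test for 4 values. Chance alone marks about 1 in 20 such groups, or 0.8 of 16. The chief HK2 probe did not set deleted tumour 2 apart, whereas the chief PDK4 probe was also highest in deleted tumour 4.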

How the results depend on the processing

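The count of called probes was 0 in the comparison as reported. It was 4 with the processed signal under quantile normalization, 10 with that signal scaled to the 75th percentile and 23 with normexp and that scaling, of which 22 were higher in deleted tumours. It was 1 without background correction, 4 with trend and robust options, 8 with array weights and 1 with slide as a random block. Leaving out 1 tumour gave 0 to 46, and the 46 came without wild-type tumour 3. Of the glycolysis genes and of the 127 pathway genes, 0 were called under every alternative run. Of 200 alternatives for the 8 genes, 187 kept the sign. This count is a description, because it includes PDK4 and the alternatives share their tumours. Those that changed only the filter on dim probes or the test left every difference as it was and could not turn a sign. ENO1 turned to -0.089 with normexp and 75th percentile scaling and to -0.046 with session as a term, and ran from -0.13 to 0.44 with 1 tumour left out. HK1 turned to -0.017 with age as a term, and ran from -0.033 to 0.22 with 1 tumour left out. PDK1 turned to 0.27 with slide as a fixed block, and ran from -0.74 to 0.14 with 1 tumour left out. With no test, PDK4 was at -1.59 with slide as a fixed block and at -0.89 within the session of wild-type tumour 2, where PDK1 was at 0.75. Within the other session ENO1 was at -0.44 and LDHA at -0.084. With 1 tumour left out PFKP ran from 0.12 to 0.73 and LDHA from 0.15 to 0.67. The causes were not tested. Between wild-type tumours 1 and 2, 504 probes differed by more than 1 as reported, 2429 with the processed signal under quantile normalization, 2339 with it scaled to the 75th percentile and 915 without background correction. The PDK4 difference was 2.91 as reported and 3.54, 3.46 and 3.42 under these 3. Its rank by size among the probes was 11 as reported and 43, 45 and 8 under the same 3. No paired analysis was possible because tumour numbers only name a tumour within its group. The 3 wild-type tumours, 2 of them near alike, limit what can be called.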
